A study of Mus musculus with 15 samples.

Results

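Genes of the Ly6 family were followed through rejecting heart and liver grafts: Ly6a, Ly6c1, Ly6d, Ly6e, Ly6f and Ly6i. They are 6 of the 32301 genes on the array, and each was read by 1 probe. It is the only probe matched to its gene by a RefSeq transcript identifier, and probes without such a match were not assigned to these genes. The genes were chosen by family membership, and Ly6f because it was among the named genes of the study, so the differences between allografts and controls had a part in the choice. Those differences are therefore given as values, without a test, for these 6 genes. The probes carried the transcript identifiers NM_010738 (Ly6a), NM_010741 (Ly6c1), NM_010742 (Ly6d), NM_008529 (Ly6e), NM_008530 (Ly6f) and NM_020498 (Ly6i).

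Gene expression was measured on 15 single-colour Agilent arrays in 5 groups of 3 mouse tissue samples. The cardiac allografts were hearts of male C57BL/10 (B10, H-2b) mice placed in the abdomen of CBA (H-2k) recipients and taken at postoperative day 5 (POD5). The hepatic allografts were livers of male B10.BR (H-2k) mice placed orthotopically in B10.D2 (H-2d) recipients and taken at POD5 or at POD8. The cardiac and hepatic controls are labelled as normal heart and normal liver, while the study's text also speaks of isografts, and which of them they were is not settled by the sources used here. Donor and recipient strains differed between the organs, so organ and strain combination cannot be told apart. The methods state 3 mice for each time point in their account of the PCR, and neither they nor the labels tie an array to an animal, so P-values measure only the spread between these samples, which may be technical.

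Proteins of the Ly6 family belong to the Ly6/uPAR superfamily. They are small, share a finger-shaped fold held together by disulphide bonds, and most are tethered to the outer face of the cell membrane by a glycosylphosphatidylinositol anchor. In the mouse several of them serve as surface markers of leukocyte subsets and progenitors, and interferons are known inducers of some, among them Ly6a, Ly6c1 and Ly6e. In a whole-tissue sample a change can come from the number of cells of a type or from the RNA in each cell, and these cannot be told apart. The sequences of the array's probes were not used here, and close relatives such as Ly6a, Ly6c1, Ly6c2, Ly6f and Ly6i may share signal by cross-hybridization, which was not tested.

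The genes sit in 1 cluster. In the RefSeq annotation of GRCm38.p6, 23 superfamily genes lie on mouse chromosome 15, of which 16 had a probe. Ly6e, Ly6i, Ly6a, Ly6c1 and Ly6c2 follow each other there, Ly6f lies farther along after Ly6a2, Ly6g and Ly6g2, and Ly6d lies on the other side of Ly6e. RefSeq promoter windows, from 250 bases before to 50 bases after a start site, were at hand for Ly6c1 and Ly6f among the 6 genes, and for the neighbouring Ly6c2. They are shown because these 3 genes had higher normalized signals in the allografts of both organs and because their promoters are close relatives. Capitals mark the longest run of bases found unchanged in all 3 windows, which is 15 bases long. In the windows shown it begins 63 bases before the start site of Ly6f, 35 before that of Ly6c1 and 60 before that of Ly6c2. Ly6c1 and Ly6c2 each have another window at a different start site, not shown, from which these distances differ. The window of Ly6a2, a gene without a probe, was also at hand and holds the run, and is not shown.
Ly6f, chr15:75268171-75268470, plus strand: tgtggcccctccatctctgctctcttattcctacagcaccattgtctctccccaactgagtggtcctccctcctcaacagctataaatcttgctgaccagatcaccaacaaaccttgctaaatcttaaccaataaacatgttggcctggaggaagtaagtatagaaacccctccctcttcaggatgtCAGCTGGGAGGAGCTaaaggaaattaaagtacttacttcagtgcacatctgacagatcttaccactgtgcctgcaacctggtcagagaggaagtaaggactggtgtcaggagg
Ly6c1, chr15:75048788-75049087, minus strand: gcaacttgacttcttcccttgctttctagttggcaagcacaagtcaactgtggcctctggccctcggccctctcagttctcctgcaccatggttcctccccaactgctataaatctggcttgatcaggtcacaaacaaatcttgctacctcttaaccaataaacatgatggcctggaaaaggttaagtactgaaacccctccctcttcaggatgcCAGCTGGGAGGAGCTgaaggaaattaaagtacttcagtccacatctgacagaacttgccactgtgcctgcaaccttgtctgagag
Ly6c2, chr15:75111922-75112221, minus strand: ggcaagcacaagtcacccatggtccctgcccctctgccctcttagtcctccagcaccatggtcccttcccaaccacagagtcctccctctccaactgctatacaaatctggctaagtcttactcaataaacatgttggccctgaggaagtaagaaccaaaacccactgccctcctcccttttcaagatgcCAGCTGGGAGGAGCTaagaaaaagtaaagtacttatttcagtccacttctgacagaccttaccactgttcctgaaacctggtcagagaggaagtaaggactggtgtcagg

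The Ly6c1 and Ly6f windows were identical at 215 of 250 aligned bases (86%). Ly6c2 and Ly6f were identical at 229 of 274 (83.6%), and Ly6c1 and Ly6c2 at 208 of 266 (78.2%). An interferon-stimulated response element (ISRE), read as GAAA, any 2 bases and GAAA again and held on either strand by 3.44% of 32851 promoter windows of this length, did not occur in these windows. Nor did a gamma-activated site (GAS), read as TTCNNNGAA with N for any base and held by 8.3% of the 32851 windows.

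The arrays differed in brightness along with the groups. The 75th percentile of the processed signal was 938 to 1150 on the cardiac controls and 363 to 652 on the cardiac allografts. It was 87.7 to 216 on the hepatic controls, 319 to 452 on the hepatic allografts at POD5 and 365 to 426 at POD8, and hepatic control 1 was the dimmest array of all. Of all probes, 52.5% to 70.4% were well above background on an array. The tissue labels were checked by markers: of the hepatocyte genes Alb, Apoa1 and Ttr were not well above background on any heart array, and of the cardiomyocyte genes Myh6, Myl2 and Ryr2 were not on any liver array. These were 3 of 6 hepatocyte genes with a probe and 3 of 7 cardiomyocyte genes. The other genes of each list were well above background on at least 1 array of the other organ. Values below are log2 signals after quantile normalization of the 15 arrays, on which 1 unit is a doubling. They are compared for 1 gene between groups, and not between genes.

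Ly6f is a little-studied member of the cluster. On the cardiac controls its log2 signal was 7.05, 7.09 and 7.66, and on the cardiac allografts it was 11.65, 12.72 and 12.15. The lowest allograft lay 4.0 above the highest control. The mean difference was 4.91 ± 0.32 (log2, standard error (SE) of the limma fit, n = 3 and 3), or 30.1-fold. On the hepatic controls the log2 signal was 1.43, 4.18 and 4.90, and only the third was well above background. It was 9.28, 9.43 and 9.61 on the hepatic allografts at POD5 and 8.10, 8.31 and 9.09 at POD8, with every array well above background. All hepatic allografts thus lay above all hepatic controls, and the POD8 arrays lay below the POD5 arrays. The differences from the controls were 5.94 ± 0.92 at POD5 and 5.0 ± 0.96 at POD8, and they rest on control values that are mostly at background. Without hepatic control 1 they were 4.90 and 3.96, and after another background correction (normexp) they were 3.16 and 2.46.

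Ly6c1 encodes one of the 2 proteins seen by anti-Ly6C antibodies, which stain monocytes, endothelial cells and some T cells. Its log2 signal was 12.65, 13.01 and 13.13 on the cardiac controls and 13.35, 14.11 and 13.54 on the cardiac allografts. The heart groups did not overlap, but the gap between them was only 0.21. The mean difference was 0.74 ± 0.25. With scaling to the 75th percentile it was 0.75 ± 0.40. Before normalization the processed signals were 15000, 17300 and 18900 on the cardiac controls and 12700, 18700 and 14400 on the cardiac allografts. The heart difference was thus seen only after the arrays were put on 1 scale. On the hepatic controls the log2 signal was 2.72, 6.19 and 6.20, the first of which was not well above background. It was 10.35, 10.38 and 10.48 on the hepatic allografts at POD5 and 9.65, 9.99 and 9.63 at POD8. Every hepatic allograft lay far above the controls and below every heart array, and again POD8 lay below POD5. The differences from the hepatic controls were 5.37 ± 1.0 at POD5 and 4.72 ± 1.01 at POD8. Without hepatic control 1 they were 4.2 and 3.56, and with normexp 3.55 and 2.87.

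Ly6a encodes Sca-1, a marker of haematopoietic stem cells that activated lymphocytes and vascular endothelium also carry. Its log2 signal was 12.67, 12.68 and 13.22 on the cardiac controls and 14.59, 15.03 and 14.71 on the cardiac allografts. The groups stood 1.37 apart, and the mean difference was 1.92 ± 0.21, or 3.79-fold. On the hepatic controls the log2 signal was 7.75, 8.52 and 9.33. It was 12.29, 12.29 and 12.33 on the hepatic allografts at POD5 and 12.09, 12.44 and 12.31 at POD8. All 6 hepatic allografts thus lay within a narrow band above the controls, and the control arrays were spread more widely (SD 0.79) than the POD5 arrays (SD 0.02). The differences from the hepatic controls were 3.77 ± 0.41 at POD5 (13.6-fold) and 3.74 ± 0.41 at POD8 (13.4-fold).

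Ly6e encodes a thymocyte and lymphocyte antigen that is also made in liver and other tissues. Its log2 signal was 12.26, 11.84 and 12.10 on the cardiac controls and 13.37, 13.70 and 13.57 on the cardiac allografts. The groups stood 1.11 apart, and the mean difference was 1.48 ± 0.15, or 2.79-fold. The log2 signal was 12.46, 12.78 and 13.04 on the hepatic controls, 13.94, 13.67 and 13.92 on the hepatic allografts at POD5 and 13.80, 13.87 and 13.74 at POD8. Both hepatic allograft groups lay above the controls and overlapped each other. The differences from the controls were 1.08 ± 0.19 at POD5 (2.12-fold) and 1.04 ± 0.17 at POD8 (2.06-fold).

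Ly6i is a close relative of Ly6c1 and Ly6a. Its log2 signal was 9.07, 9.48 and 9.59 on the cardiac controls and 10.71, 11.71 and 10.91 on the cardiac allografts. The groups stood 1.12 apart, and the mean difference was 1.73 ± 0.30, or 3.31-fold. The log2 signal was 7.48, 7.47 and 8.19 on the hepatic controls, 8.92, 9.13 and 8.54 on the hepatic allografts at POD5 and 8.89, 8.93 and 8.90 at POD8. The allografts again lay above the controls at both times. The differences were 1.15 ± 0.28 at POD5 (2.22-fold) and 1.19 ± 0.22 at POD8 (2.28-fold).

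Ly6d, a marker of progenitors committed to the B cell lineage that is also found on keratinocytes, had overlapping groups in the heart. Its log2 signal was 8.99, 6.78 and 8.57 on the cardiac controls and 7.47, 9.24 and 8.15 on the cardiac allografts. The mean difference there of 0.17 ± 0.74 was smaller than the spread within either group (SD 1.17 and 0.89). On the hepatic controls the log2 signal was 9.31, 9.33 and 9.43. It was 10.83, 10.00 and 10.67 on the hepatic allografts at POD5, which all lay above the controls, and 9.34, 11.04 and 10.77 at POD8, where 1 array lay within the control range. The differences from the controls were 1.14 ± 0.25 at POD5 and 1.03 ± 0.47 at POD8.

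**Figure D1:**
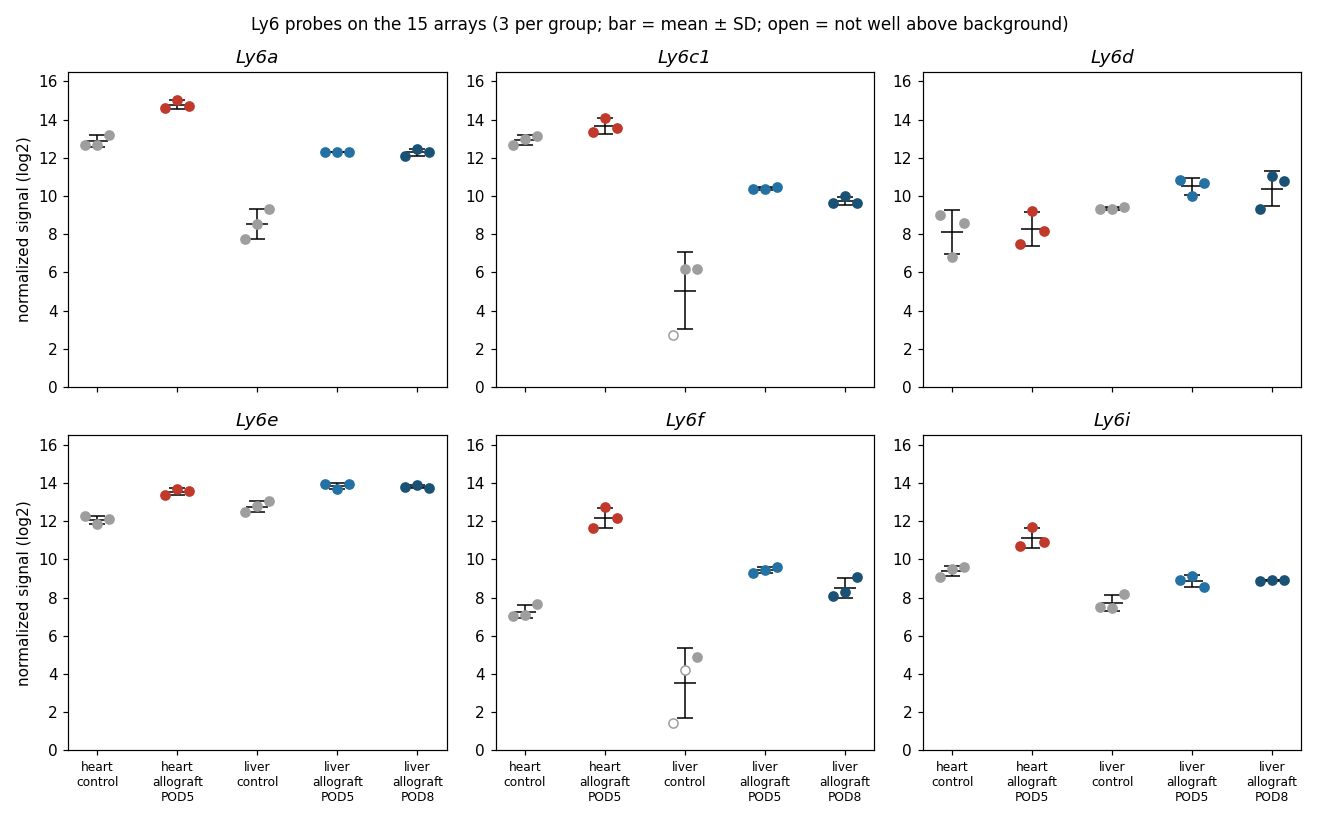
Normalized log2 signal (vertical axis) of the 6 Ly6 probes on the 15 arrays, with 3 arrays in each of the 5 groups (horizontal axis). Points are arrays, open where the probe was not well above background, and bars are the group mean ± SD. The open points are all hepatic controls, and for Ly6f the 3 cardiac allografts sit between 11.65 and 12.72, above every other array.

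The order of the 5 groups differed between the genes. Ly6a and Ly6c1 had their lowest mean on the hepatic controls, then the hepatic allografts, the cardiac controls and the cardiac allografts, and so did Ly6i. For Ly6a only the POD5 and POD8 hepatic allografts overlapped in that order, and for Ly6c1 no groups did. For Ly6i the POD5 and POD8 hepatic allografts overlapped. There the highest hepatic allograft at POD5 (9.13) also lay above the lowest cardiac control (9.07). For Ly6f the cardiac controls (mean 7.27) lay between the hepatic controls (3.50) and the hepatic allografts at POD8 (8.50). Ly6e was lowest on the cardiac controls (12.07) and highest on the hepatic allografts at POD5 (13.84), and the cardiac allografts (13.55) lay just below the hepatic allografts at POD8, by 0.04 between the nearest arrays, and overlapped those at POD5. For Ly6d both heart groups lay below the hepatic controls, by 0.07 between the nearest arrays.

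In the heart, 5 of the 6 genes had every allograft above every control, as did 29.1% of all 41025 probes tested. At POD5 in the liver it was 6 of the 6, beside 12.4% of 41155 probes, and at POD8 it was 5 of the 6, beside 12.9% of 41157 probes. Since these contrasts had a part in the choice of the genes, nothing is read from these counts. The median difference of the 6 genes was 1.60 for cardiac allografts and 2.46 and 2.47 for hepatic ones at POD5 and POD8, beside 0.02, -0.07 and -0.08 over all probes. The 2 hepatic comparisons share their controls. Each slide holding heart arrays held either allografts or controls, so in the heart a slide effect cannot be told apart from the group. The same holds for the hepatic allografts at POD5, since no slide held them together with hepatic controls. The interaction below is built on these comparisons. In the liver 1 slide held 2 controls and 2 allografts at POD8, and on it the differences were 4.12 for Ly6a, 5.37 for Ly6c1, 0.87 for Ly6d, 1.21 for Ly6e, 5.40 for Ly6f and 1.43 for Ly6i.

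**Figure D2:**
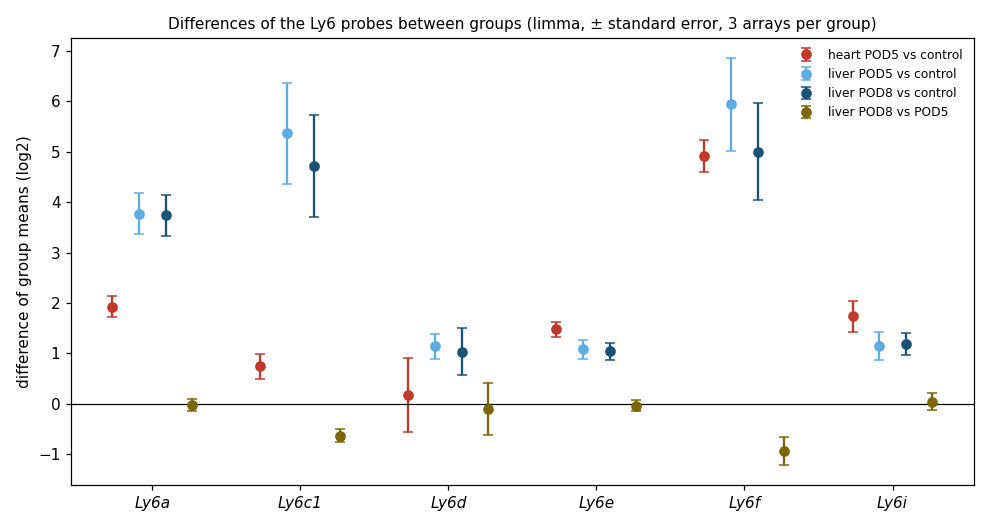
Difference of group means (log2, vertical axis) for each of the 6 genes (horizontal axis) in 4 comparisons, with 3 arrays in each group. Points are limma estimates and bars are ± 1 standard error. Ly6f differed from the controls by 4.91 to 5.94, Ly6d in the heart by 0.17 ± 0.74, and the POD8 minus POD5 differences lie between -0.94 and 0.04.

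The comparison between the later (POD8) and the earlier (POD5) hepatic allografts asks how the genes stood later in rejection. It was not itself used in their choice, although both groups entered the allograft-versus-control differences that were. Ly6f was 0.94 ± 0.28 lower at POD8 (95% confidence interval -1.65 to -0.23), with unadjusted P = 0.018 and adjusted P = 0.30 in limma. Ly6c1 was 0.64 ± 0.13 lower (-0.97 to -0.31), with unadjusted P = 0.0037 and adjusted P = 0.24 in limma. For both genes all 3 POD8 arrays lay below all 3 POD5 arrays, as 10.4% of 41165 probes did, and neither difference passed the test. The other differences were -0.02 for Ly6a (-0.32 to 0.27), -0.11 for Ly6d (-1.39 to 1.16), -0.04 for Ly6e (-0.33 to 0.24) and 0.04 for Ly6i (-0.39 to 0.46), with overlapping groups. Limma called none of the 41165 probes in this comparison (0%), with 5299 at an unadjusted P-value below 0.05, while the methods' t-test with the same adjustment called 3 and the standardized fold change (SFC) of the methods called 213. On simulated data for this comparison SFC also called 1140 unchanged probes, where limma called 4. Only 200 of 41003 probes were changed there, and SFC scales each difference by those of probes with similar signal. The simulated count therefore cannot be set against the 213. No slide held arrays of both times.

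Whether heart and liver grafts differed in the size of their POD5 change was tested as an interaction in 1 limma fit of 12 arrays. It combines both allograft-versus-control differences at POD5, which had a part in the choice of the genes. Of all 41006 probes 13.7% were called, 7.26% with the smaller and 6.41% with the larger value in the heart. The Ly6c1 difference was smaller in the heart (heart minus liver -4.63 ± 1.09 in log2 units, 95% interval -7.06 to -2.20, adjusted P = 0.023 in limma). The Ly6a difference was also smaller in the heart (-1.85 ± 0.48, -2.92 to -0.78, adjusted P = 0.033). Both genes were already high on the cardiac controls, with means of 12.93 and 12.86, above every hepatic allograft. Without hepatic control 1, on which Ly6c1 was not well above background, the values were -3.47 for Ly6c1 and -1.46 for Ly6a, with adjusted P = 0.001 and 0.03 in limma, and with normexp the Ly6c1 value was -2.56 (adjusted P = 0.0038). Neither call held with the slide as a random block (-4.55 with adjusted P = 0.071 and -1.79 with adjusted P = 0.08), nor without cardiac allograft 3 (-4.57 with adjusted P = 0.05 and -1.81 with adjusted P = 0.069) or cardiac control 3 (-4.53 with adjusted P = 0.059 and -1.67 with adjusted P = 0.084). The Ly6a call was also lost without cardiac allograft 1, cardiac control 1 or 2, any 1 of the hepatic allografts, or hepatic control 2, with adjusted P = 0.055 to 0.064 in limma.

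The other 4 genes did not pass this test. The heart minus liver values were -0.97 for Ly6d (-2.80 to 0.86), 0.40 for Ly6e (-0.18 to 0.98), -1.03 for Ly6f (-3.32 to 1.27) and 0.58 for Ly6i (-0.38 to 1.54). For Ly6f the sign turned with normexp (1.02), and the value was 0.01 without hepatic control 1.

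Of 44 other genes of the superfamily, 34 had a probe. By limma with a Benjamini-Hochberg adjusted P-value below 0.05, 9 of them rose and 3 fell in the heart, beside 15.6% and 16.4% of all probes. The risers included the cluster neighbour Ly6c2, whose protein marks inflammatory monocytes (1.71 ± 0.16, adjusted P = 0.002 in limma), Plaur, the urokinase receptor (1.78 ± 0.26), Ly6g5b (2.21 ± 0.23) and Spaca4 (1.58 ± 0.08). Lypd2 (1.09), Psca (1.07) and Ly6h (0.94) rose less, and Lypd6 (0.89) and Tex101 (0.70) were called on signals that were not well above background on any heart array. The genes that fell were Gpihbp1, which holds lipoprotein lipase on capillary endothelium (-1.59 ± 0.30), Cd59a, an inhibitor of the complement attack complex (-1.60 ± 0.17), and Lynx1, a modulator of nicotinic acetylcholine receptors (-1.25 ± 0.19). The median over the 34 genes was 0.31, beside 0.02 over all probes.

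In the liver Ly6c2 alone rose at POD5 (2.88 ± 0.20, adjusted P = 0.0088 in limma) and at POD8 (2.84 ± 0.15, adjusted P = 0.0023), where 2.38% and 3.53% of all probes rose. At POD8 Ly6h (-1.18 ± 0.19) and Cd59a (-0.70 ± 0.12) fell, where 1.44% of all probes did (0.778% at POD5). The calls at POD5 were none without hepatic allograft 1 or 2 and 2 without hepatic control 3, and those at POD8 were 1 without any 1 of the hepatic allografts at POD8. Plaur was 2.49 ± 0.54 and 2.37 ± 0.52 higher than in the controls at POD5 and POD8 and did not pass the test (adjusted P = 0.081 and 0.074 in limma). The medians were -0.14 at POD5 and -0.28 at POD8, and none of the 34 genes was called between POD8 and POD5. In the heart against liver test 8 were called, beside 13.7% of all probes, 6.41% with the higher and 7.26% with the lower value in the heart. Of the 8, 5 had the higher value in the heart (Ly6h, Ly6g5b, Lypd2, Lypd6 and Spaca4). The lower value there was found for 3 (Ly6c2 at -1.17 ± 0.27, Gpihbp1 at -1.83 ± 0.44 and Lypd8 at -3.74 ± 0.86). Lypd8 was not well above background on any cardiac allograft or hepatic control, and was on only 1 cardiac control and 2 hepatic allografts at POD5, so its value rests on signals at background. The same holds for Lypd6, which was well above background on no heart array, 1 hepatic control and 2 hepatic allografts at POD5. Ly6c2 passed in the same direction as Ly6a and Ly6c1, but it may share signal with them and is no separate evidence. Without cardiac allograft 3 or cardiac control 3 the count of 8 was 5.

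**Figure D3:**
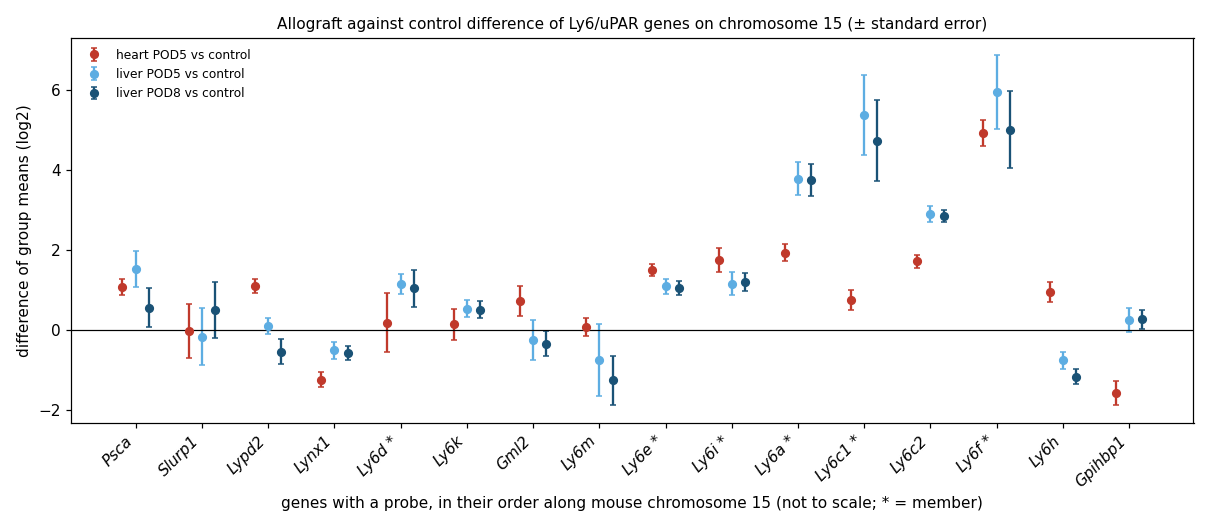
Difference between allografts and controls (log2, vertical axis, ± 1 standard error) for the 16 superfamily genes of chromosome 15 that had a probe, in their order along the chromosome (horizontal axis, not to scale, asterisks mark the 6 genes followed here). The run from Ly6e to Ly6f lies above 0 in all 3 comparisons, while Gpihbp1 at one end was -1.59 in the heart and Lynx1 towards the other was -1.25.

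Genes of the interferon response moved alongside. Of 18 listed genes, 17 rose in cardiac allografts, 8 in hepatic ones at POD5 and 14 at POD8, and none fell. Of all probes, 15.6%, 2.38% and 3.53% rose in these comparisons. Cxcl9, a chemokine induced by interferon gamma, was 7.13 ± 0.34 higher in cardiac allografts, 5.92 ± 0.37 in hepatic ones at POD5 and 5.31 ± 0.31 at POD8. Ifng itself was 10.56 ± 0.39 higher in cardiac allografts, 5.79 ± 0.47 in hepatic allografts at POD5 and 6.19 ± 0.37 at POD8. Both genes passed the limma test in all 3 comparisons, with adjusted P between 0.00043 and 0.01. The medians of the list were 3.22, 1.92 and 2.18, beside 0.02, -0.07 and -0.08 over all probes. In the heart against liver test 3 of the 18 were called, beside 13.7% of all probes. Among the 3 were Ifng (4.77 ± 0.64) and Irf1 (2.49 ± 0.38), both with the higher value in the heart, the opposite direction to Ly6a and Ly6c1. None was called between POD8 and POD5.

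Markers of other cell types also moved with the groups, and their part in the values of the 6 genes was not tested. The counts below are read beside the shares of all probes called. In cardiac allografts 15.6% of all probes rose and 16.4% fell. In hepatic ones these shares were 2.38% and 0.778% at POD5 and 3.53% and 1.44% at POD8. Of 8 T cell markers, 8 rose in cardiac allografts, 6 in hepatic ones at POD5 and 6 at POD8. Their summed signal was 2550 to 3670 on the cardiac controls, 19100 to 29100 on the cardiac allografts, 691 to 873 on the hepatic controls, 9990 to 17900 at POD5 and 8050 to 9870 at POD8, and Cd8a was not well above background on any hepatic control. Of 7 monocyte and macrophage markers with a probe, which include Ly6c2, 2 rose in each comparison with controls. Their summed signal was 60900 to 102000 and 160000 to 193000 on the cardiac controls and allografts, and 5440 to 14200, 42100 to 56400 and 46500 to 49600 on the hepatic controls, POD5 and POD8 allografts. Ly6c2 is a Ly6 relative that may share signal with the 6 genes, so this sum is not independent of them.

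Endothelial markers went the other way in the heart. There 7 of 8 fell, beside 16.4% of all probes, with a median of -1.67. Their summed signal was 22700 to 31700 on the cardiac controls and 8230 to 9170 on the allografts. In the liver it was 4540 to 6810 on the controls, 5440 to 7590 at POD5 and 6110 to 6220 at POD8, with 1 gene called lower at POD5 and none at POD8. Of 7 neutrophil markers with a probe, none was called higher, and 2 were called lower in cardiac allografts and 2 in hepatic ones at POD5. Of all probes, 16.4% and 0.778% were called lower there. The median of the list was -1.06 in the heart, -0.10 at POD5 and 2.09 at POD8, where no marker was called. Their summed signal was 34400 to 55100 and 8170 to 34100 on the cardiac controls and allografts, and 3320 to 10000, 4450 to 6870 and 6880 to 17700 on the hepatic controls, POD5 and POD8 allografts. Ngp was not well above background on any array of the cardiac allografts, the hepatic controls or the POD5 allografts, and neither was Camp on the last.

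B cell markers, set beside Ly6d, stayed low. Of 6, 1 rose in cardiac allografts, none in hepatic ones at POD5 and 1 at POD8, and Blk was not well above background on any array. Their summed signal was 618 to 1730 and 443 to 878 on the cardiac controls and allografts, and 590 to 1130, 530 to 944 and 751 to 962 on the hepatic controls, POD5 and POD8 allografts. Of 8 epithelial and bile duct markers 4 fell in the heart, where their summed signal was 1990 to 10100 on the controls and 2830 to 3150 on the allografts with Cldn4 not well above background, and none was called in the liver. There the sum was 80100 to 94800 on the controls, 98700 to 182000 at POD5 and 102000 to 125000 at POD8. Of 7 cardiomyocyte markers 3 fell in the heart (summed signal 1040000 to 1170000 on the controls, 764000 to 982000 on the allografts). Their sum was 475 to 715 on the hepatic controls, 1340 to 1740 at POD5 and 541 to 1360 at POD8, with 1 gene called higher and 1 lower at POD5 and 1 lower at POD8. Of 6 hepatocyte markers with a probe none was called in the liver (448000 to 464000 on the controls, 430000 to 448000 at POD5, 398000 to 444000 at POD8), and in the heart 2 were called higher and 1 lower at sums of 64.1 to 738 on the controls and 168 to 212 on the allografts.

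**Figure D4:**
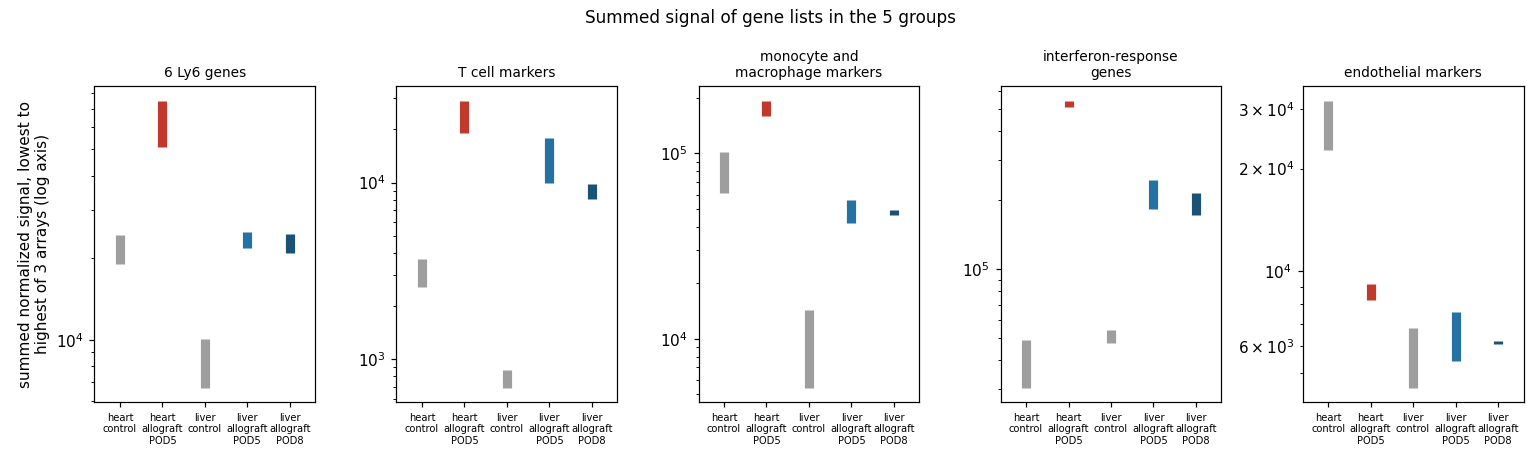
Summed normalized signal (vertical axes, log scale, each panel with its own range) of the 6 Ly6 genes, T cell markers, monocyte and macrophage markers, interferon-response genes and endothelial markers in the 5 groups. Bars run from the lowest to the highest of 3 arrays. The 6 Ly6 genes summed to 50700 to 75300 on the cardiac allografts and 19000 to 24200 on the cardiac controls, while endothelial markers fell from 22700 to 31700 to 8230 to 9170.

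Across the 15 arrays the profiles of the 6 genes were compared with those of 21565 genes by Pearson's r, as a description, since the 5 groups set most of the spread. Ly6a was most like Ly6c2 (r = 0.990), then Plek (0.989) and Gpr65 (0.988). Ly6c1 was most like Ms4a6b (0.990), Evi2a (0.989) and Pqlc3 (0.989). Ly6f was most like Rgs14 (0.985), Ripk3, a kinase of necroptosis (0.982), and AI662270 (0.981). Ly6e was most like Ubd, a ubiquitin-like protein (0.977), and the class I histocompatibility genes H2-Q2 and H2-K2 (0.973 each). Ly6i was most like AI413582 (0.980), Ccdc115 (0.975) and Mkrn1 (0.973), and Ly6d was most like Ftl1, the ferritin light chain (0.916), Tmprss4 (0.914) and a transcript with no matched symbol (0.910).

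Among the 6 genes themselves, Ly6a, Ly6c1, Ly6f and Ly6i had r of 0.83 to 0.96 with each other over the 15 arrays. Ly6d had r of -0.41 to -0.04 with those 4 and 0.64 with Ly6e over the 15 arrays. Within an organ the sign with those 4 was positive. It was 0.64 to 0.75 over the 9 liver arrays and 0.19 to 0.27 over the 6 heart arrays. When the group means were taken away, the deviations of Ly6c1 and Ly6f still had r = 0.92 and those of Ly6a and Ly6f r = 0.90, while those of Ly6c1 and Ly6i had r = 0.41. These deviations hold the spread between arrays of 1 group, including that of hepatic control 1.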

How the data were processed

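RNA of 15 heart and liver samples was labelled with Cy3 and hybridised to single-colour Agilent arrays, 3 per group, on 6 slides. Per the file headers, Feature Extraction 10.5 read the scans of a design whose annotation build is mm9. The authors deposited a processed intensity for each spot, with local background subtracted and no normalization between arrays, beside the median intensity of the spot and of its background. The deposited arrays had 43379 spots, 47 to 113 outlier spots and 0 saturated spots each. The study's methods describe quantile normalization, which was repeated here.

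Here log2 of the processed intensity was taken, outlier spots were left out, spots of 1 probe were averaged, and quantile normalization was applied over the 15 arrays. A probe counted as well above background where at least 0.5 of its spots carried that mark. Of 41174 probes 26690 (64.8%) matched a transcript of RefSeq (GRCm38.p6, used for names, gene order and promoter windows), and names from the files served for the rest. Comparisons were fitted with limma 3.58.1 (lmFit, eBayes) in R 4.3.3 with data.table (version 1.17.8), on the arrays of the groups compared, with Benjamini-Hochberg adjustment over all probes at 0.05. In single comparisons the design of 3 against 3 arrays allows an exact permutation test no P-value below 0.10, so none was run. Promoters were aligned with Biopython 1.88, and plots were made in Python 3.11.15 (matplotlib 3.10.9).

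The 6 genes and all lists (44 other superfamily genes, 18 interferon-response genes, and markers of T cells, monocytes and macrophages, neutrophils, B cells, endothelium, epithelium, cardiomyocytes and hepatocytes) were chosen with earlier results of these data known. The rule named the 6 genes, the superfamily genes that were called, and for each of the 6 the 3 genes with the highest r. List examples beyond these were chosen after their values were seen. A gene of a list was read from its brightest probe, and 1 list gene is counted but not reported here on its own. On simulated data with 200 of 41003 probes changed by 3 log2 units, limma recovered 153 in the heart, 110 and 126 in the liver at POD5 and POD8, 150 between POD8 and POD5, and 117 in the interaction, with 3 or 4 unchanged probes called. SFC, run on all of these but the interaction, recovered 161 to 199 and called 1101 to 1248 unchanged probes. On the real arrays SFC called 213 to 359 probes in all, so these simulated counts do not carry over to them. Alternatives were other normalizations and background corrections, filters, priors, the methods' t-test and SFC, blocks and leaving out arrays. For arrays the number of samples limits the precision.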

Additional observations from a re-analysis of the deposited data

Results flagged for a closer look

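The interaction combines 2 comparisons that had a part in the choice of the genes, so its P-values are not independent of that choice. Ly6a and Ly6c1 are listed because the difference between allografts and controls at POD5 was not the same in the heart as in the liver in the limma interaction test. The heart minus liver value was -4.63 for Ly6c1 (adjusted P = 0.023), from 0.74 in the heart and 5.37 in the liver, where 1 control array was not well above background. With normexp it was -2.56, from a liver difference of 3.55. It was -1.85 for Ly6a (adjusted P = 0.033), from 1.92 in the heart and 3.77 in the liver. Neither passed with the slide as a random block or without cardiac allograft 3 or cardiac control 3, and organ and strain combination cannot be told apart.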

How the results depend on the processing

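The differences of the 6 genes from their controls kept their sign under all alternatives except for Ly6d in the heart, which ran from -0.42 to 0.22 over the settings and from -0.50 to 0.61 with 1 array left out. Ly6f ran from 4.18 to 5.06 in the heart, 3.16 to 5.94 at POD5 and 2.46 to 5.40 at POD8, and Ly6c1 from 0.54 to 0.99, 3.55 to 5.37 and 2.87 to 5.37. Between POD8 and POD5, where no gene of the 6 was called under any setting, the sign turned with SFC for Ly6a (0.02), Ly6d (0.10) and Ly6i (-0.02), and leaving out 1 array gave -0.10 to 0.07 for Ly6a, -0.44 to 0.41 for Ly6d, -0.13 to 0.01 for Ly6e and -0.12 to 0.17 for Ly6i. The heart against liver value of Ly6f turned to 1.02 with normexp and ran from -1.73 to 0.01 with 1 array left out. The 2 calls of that test became 0 with the slide as a random block (-1.79 and -4.55) and 0 to 2 with 1 array left out (Ly6a -2.24 to -1.46, Ly6c1 -5.21 to -3.47). The cause was not tested.

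Of the 34 other superfamily genes, the 12 called in the heart became 25 with 75th percentile scaling and 0 with the methods' t-test after Bonferroni adjustment or with SFC, and 7 to 16 with 1 array left out. The 1 call at POD5 became 2 with quantile normalization within the comparison or the organ, 4 with 75th percentile scaling, 3 with normexp, 3 with only probes well above background, 8 in 1 fit of 5 groups and 0 with the t-test after Bonferroni adjustment, and 0 to 2 with 1 array left out. The 3 calls at POD8 became 5 with normalization within the comparison, 15 with 75th percentile scaling, 6 with normexp, 7 in 1 fit of 5 groups, 5 with the slide as a random block, 1 and 0 with the t-test (Benjamini-Hochberg and Bonferroni), 1 with SFC, 0 within the slide that holds both groups (chosen after seeing the data) and 1 to 4 with 1 array left out. SFC gave 1 call between POD8 and POD5. The 8 interaction calls became 17 with 75th percentile scaling, 4 with the slide block and 5 to 8 with 1 array left out.

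Scaling to the 75th percentile moved the median of all probes from 0.02 to 0.47 in the heart, from -0.07 to -0.38 at POD5, from -0.08 to -0.46 at POD8 and from 0.08 to 0.64 in the interaction. It moved the heart calls from 6394 higher and 6722 lower to 15727 and 5469, the POD8 calls from 1453 and 593 to 2368 and 10507, and the interaction calls from 2628 and 2977 to 12830 and 2766. Over all probes the t-test with Benjamini-Hochberg adjustment called 10499 in the heart, 231 at POD5 and 816 at POD8, against 13116, 1301 and 2046 with limma, and 1 fit of 5 groups called 11718, 6205 and 4791. With 1 array left out the limma counts ran from 7547 to 17261 in the heart, 28 to 1027 at POD5 (lowest without hepatic allograft 2) and 300 to 2659 at POD8 (lowest without hepatic allograft 1), so the shares of all probes called move as widely.

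Replicate numbers did not pair the samples, as deviations of same-numbered arrays had r of -0.12 to 0.04. With the replicate block the calls were 8859 in the heart and 0 at POD5 and at POD8 in the liver, superfamily calls at POD5 and POD8 were 0, and the Ly6a and Ly6c1 interaction values were -1.85 (adjusted P = 0.034 in limma) and -4.63 (adjusted P = 0.025 in limma).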
